A study of Mus musculus with 34 samples.

Results

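The 4 genes described here, Tnf, Il6, Il1b and Il1rn, encode secreted regulators of inflammation: the cytokines TNF, interleukin 6 and interleukin 1 beta, and the interleukin 1 receptor antagonist. They were chosen by name. Each was measured by 1 probe, named through the platform annotation, and they are 4 of 22879 features measured in epididymal fat, the fat pad beside the epididymis of the mouse. The study followed a high fat diet over generations on 34 two-colour arrays. Mice on the normal diet were STD, and their high-fat offspring were HF0. HF1 mice were offspring of HF0, HF3 mice came from an HF2 generation not analysed here, and HF4 mice came from HF3, all on the high fat diet. Mice of the groups HF1-REV, HF3-REV and HF4-REV were born to the same parental generations (HF0, HF2 and HF3) but ate the normal diet, so the 3 reversal groups share the high-fat ancestry with their namesakes and differ from them in diet. The sources used here give neither strain, age nor the number of animals behind an extract. Experiment 1, with RNA from Trizol, had 12 arrays that paired STD, HF0, HF3 and HF4 in every combination. Experiment 2, with RNA from Qiagen reagents, had 22 arrays: every combination of HF0, HF1, HF3 and HF4, then HF0 with STD on 4 arrays, plus each of HF1, HF3 and HF4 with its reversal group on 2 arrays.

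Values are log2 ratios, written as 1 group over another and computed as if the deposited ratio were Cy5 divided by Cy3. The labels do not say which dye was divided by which. If it was the reverse, every sign in the text turns, so a positive value is not read as more RNA, and only agreement or opposition of signs is described. No value was turned into a fold. The log base is taken as 2. Both arrays of a dye swap count as 1 measurement of a pair of extracts, and both values are given. In whole fat, fewer cells of a type and less RNA per cell cannot be told apart. The deposited table holds ratios without signal levels, so the presence of adipocyte markers in the tissue could not be checked.

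TNF and interleukin 1 beta are the classical first cytokines of an inflammatory response. Each acts through its own receptor on kinases that release the transcription factor NF-kB, and both are made largely by macrophages and other myeloid cells. Interleukin 6 is induced by both, is also made by stromal and fat cells, and signals through the receptor subunits encoded by Il6ra and Il6st to STAT proteins. The receptor antagonist encoded by Il1rn occupies the interleukin 1 receptor without signalling, and so limits the action of interleukin 1 beta. In obese fat these genes are textbook markers of the low-grade inflammation that accompanies macrophage entry.

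The start-site windows of the 4 genes are printed because the genes shared a direction on some arrays and not on others, and the windows show which short motifs they do and do not have in common. They run from 250 bases before to 50 after the annotated start, from RefSeq on GRCm38.p6, 5′ to 3′ on the gene's strand. Il1rn has 3 annotated starts, and the window farthest upstream is shown. Capitals mark matches to the searched motifs.
Tnf, chr17:35201958-35202257, minus strand: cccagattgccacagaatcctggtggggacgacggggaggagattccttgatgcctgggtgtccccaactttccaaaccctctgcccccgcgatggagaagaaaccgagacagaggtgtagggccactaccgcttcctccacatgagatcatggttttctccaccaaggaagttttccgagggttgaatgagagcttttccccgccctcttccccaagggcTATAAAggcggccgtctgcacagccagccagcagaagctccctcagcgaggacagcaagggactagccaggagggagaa
Il6, chr5:30012864-30013163, plus strand: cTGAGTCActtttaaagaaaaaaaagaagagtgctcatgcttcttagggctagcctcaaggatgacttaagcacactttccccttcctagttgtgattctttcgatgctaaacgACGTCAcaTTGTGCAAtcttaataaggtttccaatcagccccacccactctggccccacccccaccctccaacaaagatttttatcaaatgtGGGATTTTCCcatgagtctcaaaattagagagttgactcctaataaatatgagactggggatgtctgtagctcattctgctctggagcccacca
Il1b, chr2:129371090-129371389, minus strand: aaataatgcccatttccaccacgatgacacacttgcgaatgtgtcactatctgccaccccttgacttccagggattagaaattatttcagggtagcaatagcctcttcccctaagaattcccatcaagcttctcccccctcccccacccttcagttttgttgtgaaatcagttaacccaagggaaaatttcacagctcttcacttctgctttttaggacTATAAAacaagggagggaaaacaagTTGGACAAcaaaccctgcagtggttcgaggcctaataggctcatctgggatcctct
Il1rn, chr2:24336610-24336909, plus strand: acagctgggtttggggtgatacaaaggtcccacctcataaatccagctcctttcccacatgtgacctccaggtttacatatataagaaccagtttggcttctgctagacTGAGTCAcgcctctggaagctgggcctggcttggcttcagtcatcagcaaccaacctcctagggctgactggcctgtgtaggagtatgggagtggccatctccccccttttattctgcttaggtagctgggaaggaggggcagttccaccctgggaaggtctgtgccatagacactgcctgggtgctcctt

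A match is a description of letters and not a binding site. The decamer consensus of NF-kB, searched on both strands, was found in Il6 alone among the 6 windows of the 4 genes (GGGATTTTCC, starting 44 bases before the start) and in 8.46% of 32851 RefSeq windows of this length. The AP-1 motif TGANTCA, on both strands, stood in Il6 at -249 and in the printed Il1rn window at -141, against 7.81% of all windows. The C/EBP motif TTGNNCAA, on both strands, was in Il6 (TTGTGCAA at -128) and Il1b (TTGGACAA at -6), against 6.4%. Il6 also held the core ACGTCA of the cyclic AMP response element at -136, searched on both strands and present in 7.51%. A TATAAA box on the gene's own strand lay at -29 in Tnf and at -31 in Il1b, and in 8.32% of all windows. No motif was shared by all 4 genes. Il6 held 4 of the 5 searched motifs.

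Across the 34 arrays the members were among the more variable features. The standard deviation of the ratios was 1.53 for Il6, 0.93 for Il1b, 0.88 for Tnf and 0.74 for Il1rn, against a median of 0.40 over all features. Between 91.2% (Il1rn) and 98.2% (Il6) of features had a lower one.

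The pairings of experiment 1 did not add up for these genes, which bears on every value that joins them. With 3 groups, the ratio of the third over the first should equal the sum of the 2 steps between. For Tnf in experiment 1, HF0 over STD averaged -1.75 and HF3 over HF0 0.04, which sum to -1.71, whereas the arrays that paired HF3 with STD averaged 2.21. That gap of -3.92 was larger than the gap of 99.71% of features in the same loop. For Il6 the same loop gave a sum of -0.64 against 1.83 measured, and for Il1b 0.03 against 1.90. Least squares over the 6 pairings left 86.4% of the squared ratios of Tnf unfitted, 65.9% for Il1b, 56.2% for Il1rn and 46.8% for Il6, against 34.5% over all features. In the 6 pairings among HF0, HF1, HF3 and HF4 of experiment 2 these shares were 29.9%, 8.16%, 25.4% and 0.0592%, against 10.7%. The dye-swapped arrays of a pairing also differed in experiment 1, by a dye term (the distance of either array from their mean) of up to 0.50 for Tnf and 0.48 for Il1b. This was not particular to experiment 1: in experiment 2 the term reached 0.46 for Tnf and 0.69 for Il1b. It cancels in the average of a pair. In experiment 1 the distance of a pairing from its fitted value reached 1.77 for Tnf, 1.54 for Il6, 1.50 for Il1b and 0.81 for Il1rn. In HF4 with STD the dye term was the larger of the pair for Tnf (0.50 against 0.26) and Il1rn (0.35 against 0.11). Whether all arrays of a group held the same extract is not given in the labels, and the part of this in the misfit was not tested. For this reason direct arrays come first below and fitted values second.

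**Figure D1:**
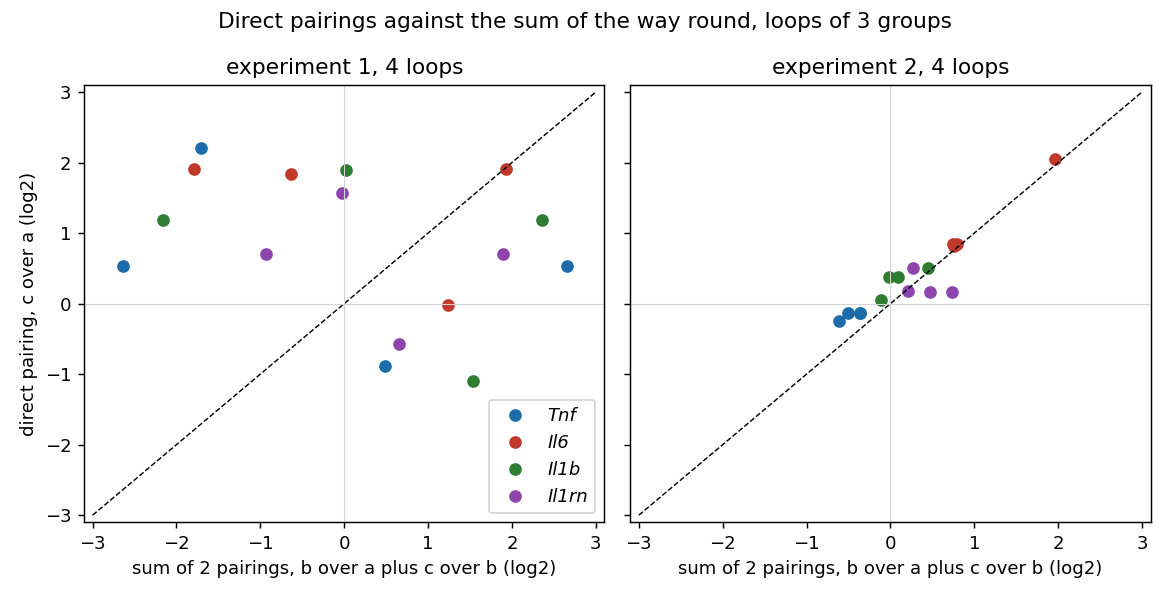
Mean log2 ratio of arrays that paired 2 groups directly (vertical) against the sum of the 2 pairings that go round through another group (horizontal), for 4 loops of 3 groups in each experiment; the dashed line marks equality. In experiment 1 the points scatter far from the line, as for Tnf at -1.71 and 2.21, whereas in experiment 2 they lie near it.

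The direction of single pairings was also checked. HF0 with STD, averaged over each experiment's arrays, correlated at -0.07 (Pearson) and -0.16 (Spearman) between the experiments over the 22879 features, which share arrays and are not independent. The other 3 pairings hybridised in both experiments gave Pearson correlations of 0.48 to 0.67 and Spearman correlations of 0.13 to 0.35. With the sign of that pairing turned in experiment 1, the unfitted share was 18.3% for Tnf, 6.02% for Il6, 28.3% for Il1b and 30.9% for Il1rn, but still 31.9% over all features. Turning any of the other 5 pairings alone gave 35.3% to 63.9% over all features. Among them, turning HF4 with HF0 left less unfitted for Il1b (18.2%) and Il1rn (29.1%), but 59.7% for Tnf and 45.7% for Il6. The labels name the dyes of both arrays, so their direction was kept. The turned values were chosen after the values had been seen, and they are given where they change a sign or a call.

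**Figure D2:**
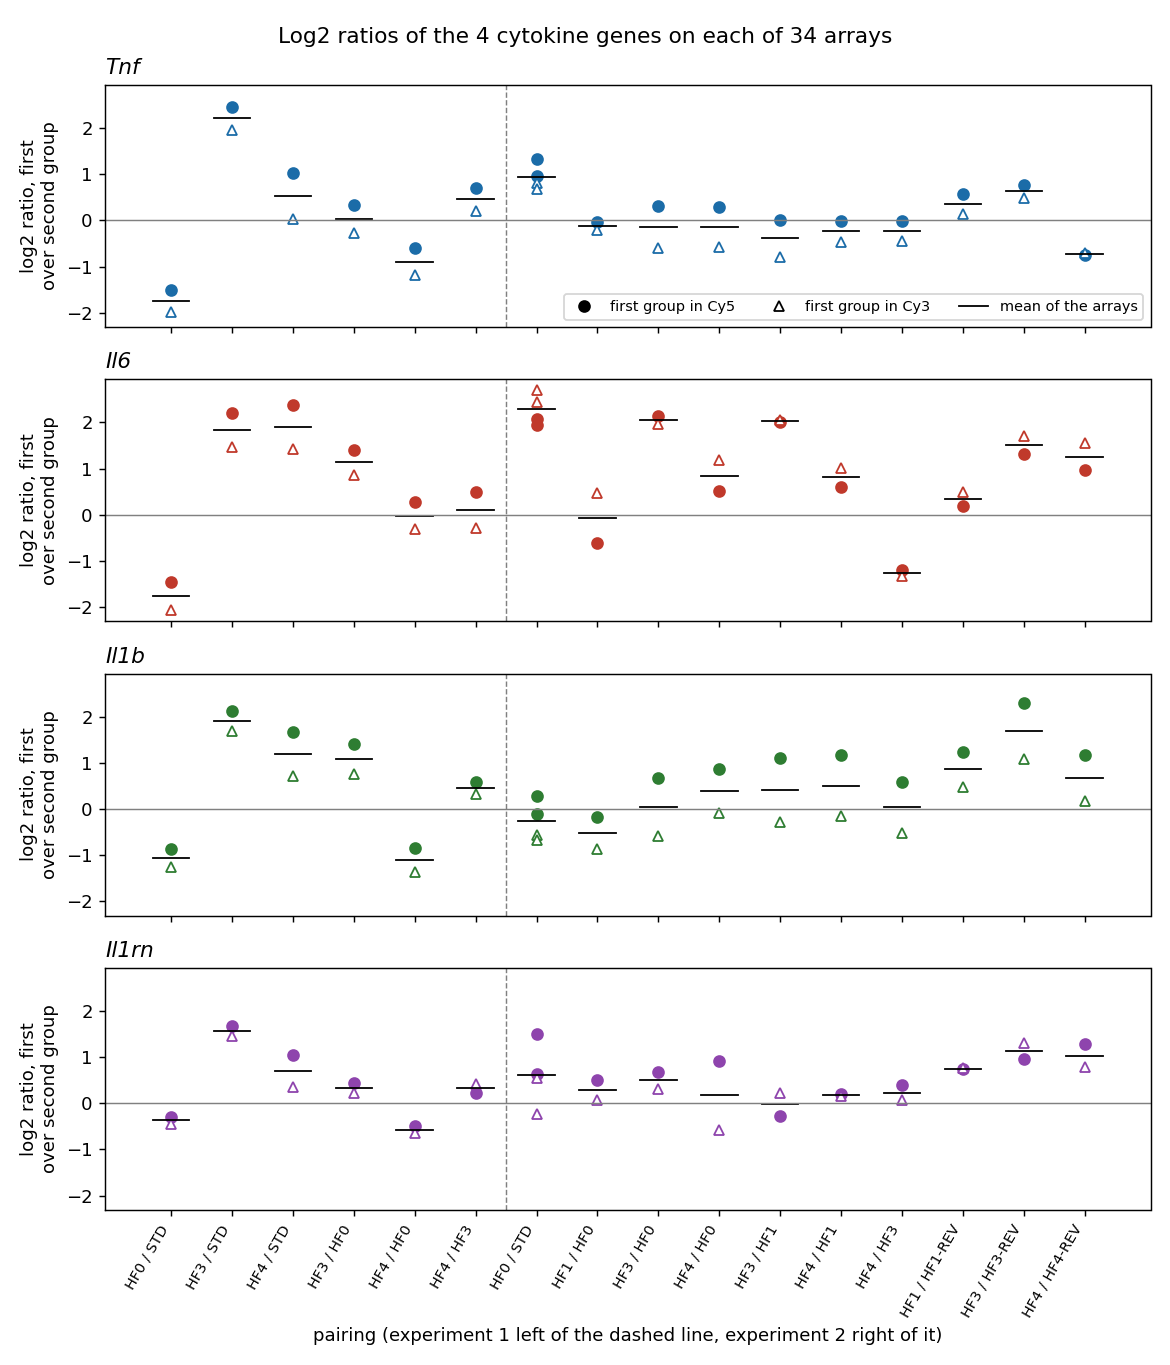
Log2 ratio of the first-named over the second-named group on each of 34 arrays (vertical) for the 16 pairings (horizontal), one panel per gene; filled circles have the first group in Cy5, open triangles in Cy3, and bars are the means. Il1rn, Il1b and Il6 are above 0 in all 3 pairings with a reversal group, and all 4 genes are below 0 for HF0 over STD in experiment 1.

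Il1b encodes interleukin 1 beta, which is made as an inactive precursor. Against the reversal groups it was positive on every array. HF1 over HF1-REV read 0.48 and 1.24, HF3 over HF3-REV 1.09 and 2.29, and HF4 over HF4-REV 0.18 and 1.16. The lower value of each pair came from the array with the high fat group in Cy3, and this offset recurred: the dye term ran from 0.34 to 0.69 in experiment 2 and from 0.14 to 0.48 in experiment 1, positive in all 16 pairings. It cancels in the average of a pair. The fitted differences were 0.86 ± 0.41 (SE) for HF1, 2.03 ± 0.37 for HF3 and 0.70 ± 0.37 for HF4, and none passed an adjusted p of 0.05 in limma (adjusted p = 1.00, 0.102 and 0.251; n = 1 extract of each reversal group). The HF3 difference passed without the STD extract of experiment 2 (1.93) and with each array on its own (1.69). It also passed without 1 array of its own pairing (2.64), and missed in the other alternatives tested.

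Against STD the ratio of Il1b depended on the pairing. In experiment 1, HF0 over STD read -1.26 and -0.86, while HF3 over STD read 1.68 and 2.12 and HF4 over STD 0.71 and 1.67. The direct ratios of HF0 over STD were thus opposite in sign to those of HF3 and HF4 over STD. They do not give an order of the groups. HF4 over HF0 averaged -1.10 in the same experiment, and least squares within it put HF0 over STD at 0.24. In experiment 2, HF0 over STD read -0.55, -0.68, 0.29 and -0.11, which straddles 0. The fit put HF0 against STD at -0.01 ± 0.29, HF3 at 0.48 ± 0.29 and HF4 at 0.29 ± 0.29 (n = 2 experiments), and none passed (adjusted p = 0.996, 0.639 and 0.670). The sign of HF4 against STD followed the dye orientation, at 1.08 from the arrays with the first group in Cy5 and -0.50 from the others. With the HF0 and STD pairing of experiment 1 turned, HF0 against STD became 0.52. Among the high fat groups, HF3 over HF0 in experiment 1 read 0.76 and 1.41 and HF4 over HF0 -1.37 and -0.84. In experiment 2 the same pairings read -0.58 and 0.68, and -0.10 and 0.86, so the 2 dye orientations disagreed in sign.

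Tnf encodes the cytokine TNF, which is released from the cell surface by the protease encoded by Adam17. Unlike Il1b, it did not keep 1 sign against the reversal groups. HF1 over HF1-REV read 0.14 and 0.56 and HF3 over HF3-REV 0.49 and 0.78, whereas HF4 over HF4-REV read -0.71 and -0.75. The 2 arrays of HF4 were close together and on the opposite side of 0 from the other 4. The fitted values were 0.35 ± 0.33, 0.77 ± 0.30 and -0.76 ± 0.30, with adjusted p = 1.00, 0.299 and 0.140 in limma. No test of the difference between these reversal comparisons was run.

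The sign of Tnf for HF0 over STD was opposite in the 2 experiments. Experiment 1 read -1.98 and -1.52, and experiment 2 read 0.82, 0.68, 1.32 and 0.95. Of all features, 22.1% were negative on both arrays of experiment 1 and 13.6% positive on all 4 of experiment 2. The share with both is not given. The 4 arrays of experiment 2 were labelled on 2 dates, whose means were 0.88 and 1.00. HF3 over STD, hybridised in experiment 1 alone, read 1.96 and 2.46, the most positive Tnf values on any array. HF4 over STD read 0.03 and 1.02. The fit gave 0.48 ± 0.23 for HF0 against STD, with adjusted p = 0.694 in limma. Without the HF0 with STD pairing of experiment 1, an alternative chosen after seeing the data, this was 1.37 and passed (adjusted p = 0.0432). It missed in the other alternatives tested. The fit gave 0.73 ± 0.23 for HF3 against STD, far below its direct arrays, with adjusted p = 0.626. Among the high fat groups of experiment 2, the dye orientations of Tnf often straddled 0 or differed widely. HF3 over HF0 read -0.60 and 0.32, HF4 over HF0 -0.57 and 0.29, and HF1 over HF0 -0.21 and -0.03. HF3 over HF1 read -0.78 and 0.0043, and HF4 over HF1 -0.47 and -0.01. The fitted HF4 against HF3 was -0.25 ± 0.23 (adjusted p = 0.923), whereas its arrays read 0.21 and 0.70 in experiment 1 and -0.45 and -0.0028 in experiment 2.

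Il6, whose product links local inflammation to the acute phase response, had the widest range of ratios. In experiment 2 it was strongly positive in HF3: 1.97 and 2.14 over HF0, 2.04 and 2.01 over HF1, and 1.70 and 1.31 over HF3-REV. HF4 lay between: 1.18 and 0.52 over HF0, 1.02 and 0.61 over HF1, and -1.32 and -1.21 over HF3. These 6 pairings among the high fat groups added up almost exactly, with 0.0592% of the squares unfitted. HF1 and HF0 were not separated, at 0.47 and -0.60.

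In experiment 1, Il6 in HF3 over HF0 was also positive, at 0.87 and 1.40, but HF4 over HF3 straddled 0 at -0.29 and 0.49. HF4 over HF0 straddled it too, at -0.31 and 0.27. The fit over both experiments gave 1.74 ± 0.68 for HF3 against HF0, 1.01 ± 0.68 for HF4 against HF0 and -0.73 ± 0.68 for HF4 against HF3, and none passed in limma (adjusted p = 0.612, 0.756 and 0.924). The standard error of Il6 was the largest of the 4 genes. These misses depended on 1 extract. Without the STD extract of experiment 2, Il6 in HF3 against HF0 was still 1.74 and passed. So did Il6 in HF3 against HF1 (1.79) and HF4 against HF4-REV (1.49).

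The STD group set Il6 apart most. HF0 over STD read -2.07 and -1.47 in experiment 1 and 2.44, 2.69, 2.07 and 1.94 in experiment 2. Every array of one experiment thus opposed every array of the other, as for Tnf. Of all features, 22.1% were negative on both arrays of experiment 1 and 13.6% positive on all 4 of experiment 2, counted separately. HF3 over STD read 1.46 and 2.21 and HF4 over STD 1.43 and 2.37, all in experiment 1. The fit put HF3 against STD at 2.77 ± 0.68 and HF4 against STD at 2.04 ± 0.68, and neither passed (adjusted p = 0.626 and 0.251). The 2 experiments contributed unequally: experiment 1 alone gave 1.21 and 0.99, and experiment 2 alone 4.33 and 3.09. Experiment 2 had no array of HF3 or HF4 with STD, so its values are indirect and run through HF0 with STD. Against the reversal groups Il6 was positive on every array, at 0.49 and 0.19 for HF1, 1.70 and 1.31 for HF3 and 1.55 and 0.96 for HF4. The fitted 1.17 ± 0.86 for HF4 against HF4-REV did not pass (adjusted p = 0.402).

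Il1rn, the gene of the receptor antagonist, had the lowest standard deviation of the 4 genes and gave the only call. Its dye-swapped arrays were not always close. The dye term reached 0.75 in HF4 with HF0 of experiment 2, the largest of any member. Against the reversal groups its arrays read 0.76 and 0.73 for HF1, 1.31 and 0.97 for HF3 and 0.78 and 1.28 for HF4. The lowest of the 6 was 0.73. In the fit, HF4 against HF4-REV was 0.91 ± 0.18 with adjusted p = 0.0309 in limma, while HF3 against HF3-REV was larger, 1.19 ± 0.18, with adjusted p = 0.0722, and HF1 against HF1-REV was 0.74 ± 0.20 with adjusted p = 0.819. The same size of difference thus passed in one comparison and missed in another. The threshold also moved between comparisons: 11.2% of all features passed in HF4 against HF4-REV, 0.0874% in HF3 against HF3-REV and 0% in HF1 against HF1-REV. The call was lost with quantile normalization (0.55, adjusted p = 0.227) and with scale normalization (0.71, adjusted p = 0.101). It was also lost without 1 array of HF4 with HF0 (0.79, adjusted p = 0.0982) or of HF0 with STD (0.87, adjusted p = 0.0634) in experiment 2, or 1 of HF4 with STD in experiment 1 (0.86, adjusted p = 0.052). Leaving out a whole pairing of experiment 1 raised its adjusted p to 0.159 (HF4 with HF3), 0.102 (HF3 with STD) or 0.0545 (HF0 with STD). Its sign stayed positive under all alternatives run. Il1rn in HF3 against HF3-REV passed with scale normalization (1.31) and without the STD extract of experiment 2 (1.22). It also passed without either array of its own pairing (1.36 and 1.02), and missed in the other alternatives tested.

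Against STD, Il1rn in HF0 read -0.44 and -0.29 in experiment 1 and 0.56, -0.24, 1.50 and 0.64 in experiment 2, where 3 of 4 arrays were positive. HF3 over STD read 1.46 and 1.67 and HF4 over STD 0.36 and 1.05. The fitted values were 0.53 ± 0.14 for HF0, 0.89 ± 0.14 for HF3 and 0.79 ± 0.14 for HF4 against STD, and all 3 missed the threshold (adjusted p = 0.632, 0.626 and 0.0865). With the HF0 and STD pairing of experiment 1 turned, HF4 against STD was 0.89 and passed (adjusted p = 0.0485). Among the high fat groups no fitted comparison of Il1rn passed, and its arrays did not keep 1 sign in every pairing. HF3 over HF0 was positive on all 4 arrays, at 0.22 and 0.45 in experiment 1 and 0.32 and 0.69 in experiment 2, with a fitted 0.37 ± 0.14 (adjusted p = 0.593). HF4 over HF0 read -0.65 and -0.49 in experiment 1 and -0.58 and 0.92 in experiment 2.

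**Figure D3:**
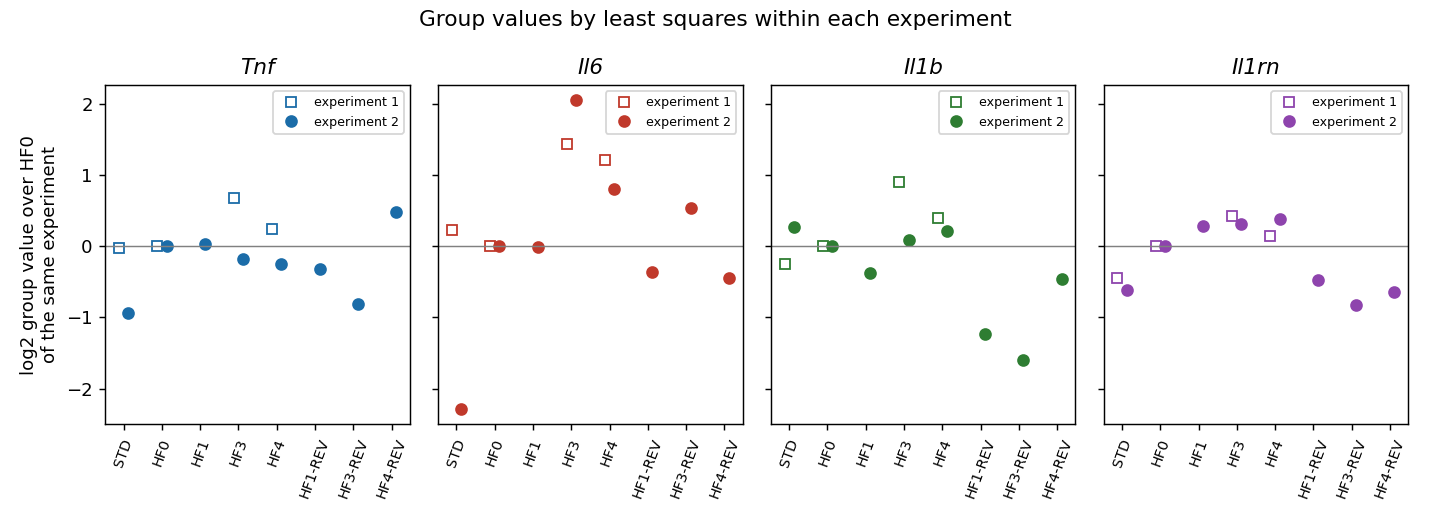
Group values by least squares within each experiment, as log2 over HF0 of the same experiment (vertical), for the groups of experiment 1 (open squares) and experiment 2 (filled circles); each point is 1 group value, with no error within an experiment. On the Cy5 over Cy3 coding, which would turn as a whole with the other numerator, Il6 is most positive in HF3 in both experiments, and the 3 reversal groups of Il1rn lie on the negative side of HF0.

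The order of the groups differed from gene to gene. It is given on the Cy5 over Cy3 coding, and with the other numerator each order runs the other way. For Il6 in experiment 2, HF3 stood at 2.04 over HF0, followed by HF4 at 0.81, HF3-REV at 0.54, HF0 at 0, HF1 at -0.02, HF1-REV at -0.36, HF4-REV at -0.45 and STD at -2.29. For Il1b the order ran from STD at 0.26 and HF4 at 0.21 down to HF4-REV at -0.46, HF1-REV at -1.24 and HF3-REV at -1.60. For Tnf the ends of the order were HF4-REV at 0.48 and STD at -0.94. For Il1rn the 4 high fat groups lay between 0 and 0.39 and the reversal groups and STD between -0.47 and -0.83. The 3 most negative groups of Il1b and Il1rn, on this coding, include no high fat group. Apart from Il1rn in HF4 against HF4-REV, no comparison of a member passed the adjusted threshold in the fit of all 12 group values.

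Read together, the members shared their sign on some arrays. All 4 were negative on both arrays of HF0 over STD in experiment 1, as were 22.1% of all features. All 4 were positive on the 4 arrays of HF3 and HF4 over STD, as were 7.7% of features. On all 4 arrays of HF0 over STD in experiment 2, Tnf and Il6 were positive, against 13.6% of features. Il1b, Il1rn and Il6 were positive on all 6 arrays with a reversal group, against 3.51% of features. These counts describe 4 genes chosen by name.

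In limma, 1 of 48 member comparisons passed. It was in HF4 against HF4-REV, where 11.2% of all features passed. There Tnf and Il1rn had an unadjusted p under 0.05, as did 31.4% of all features. In HF3 against HF3-REV 0 of 4 passed (0.0874% of features did). There 3 members (Tnf, Il1b and Il1rn) had an unadjusted p under 0.05, as did 15.4% of features. In HF1 against HF1-REV 0 passed (0%), and Il1rn alone had an unadjusted p under 0.05 (3.59% of features). Against STD, 0 of 4 passed in HF0 (0% of all features passed), 0 in HF3 (0%) and 0 in HF4 (0.437%). Members with an unadjusted p under 0.05 were Il1rn in HF0 (7.36% of features had one). They were Tnf, Il6 and Il1rn in HF3 (7.47%) and Il6 and Il1rn in HF4 (15%). Among the high fat groups 0 passed in HF1 against HF0 (0% of features), HF3 against HF0 (0%), HF4 against HF0 (4.21%), HF4 against HF3 (0%), HF3 against HF1 (0%) and HF4 against HF1 (2.81%). Of these, HF3 against HF0 had 2 members with an unadjusted p under 0.05, Il6 and Il1rn (7.8% of features). The other 5 had 0 (5.5% to 16.5% of features). Over all features, unadjusted p-values under 0.05 made up 3.59% (HF1 against HF1-REV) to 31.4% (HF4 against HF4-REV). A robust prior in limma gave the same 1 call.

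Il1b and its antagonist moved most alike. Over the 16 pairing averages, taken without centring, their correlation was 0.84, with 0.95 over the 6 pairings of experiment 1 and 0.72 over the 10 of experiment 2. Pairings share extracts and are not independent, so these are descriptions. Tnf correlated with the other 3 members at 0.81 to 0.89 in experiment 1 but at 0.10 to 0.20 in experiment 2. Il6 correlated with Il1rn at 0.64 and with Il1b at 0.47 in experiment 2.

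The difference of the log2 ratios of Il1b and Il1rn sets the mRNA of the agonist against that of the antagonist. It was -0.69 and -0.88 for HF0 over STD in experiments 1 and 2, the same sign in both, although Il1rn itself changed sign. In the other 3 pairings run in both experiments the sign of this difference was opposite: 0.75 and -0.45 for HF3 over HF0, -0.53 and 0.21 for HF4 over HF0, and 0.13 and -0.20 for HF4 over HF3. For HF3 over HF3-REV it was 0.55, for HF1 over HF1-REV 0.11 and for HF4 over HF4-REV -0.36. The difference of Il6 and Tnf was positive in experiment 2 for HF3 and HF4 over HF0, HF1 and their reversal groups. It was 2.19 and 0.99 over HF0, 2.41 and 1.05 over HF1 and 0.87 and 1.98 over the reversal groups. For HF4 over HF3 it was -1.04, and for HF0 over STD 1.345. In experiment 1 it was 1.10 and 0.87 for HF3 and HF4 over HF0, and -0.38 and 1.37 for HF3 and HF4 over STD. HF4 over HF3 gave -0.35 there, and HF0 over STD -0.02.

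The wider pathway was read through 58 measured genes in 6 roles. In HF4 against HF4-REV, 6 were positive and 2 negative past the threshold in limma, against 1682 and 870 of all 22879 features. The positive ones were Lif, a cytokine of the interleukin 6 family (1.18 ± 0.19, adjusted p = 0.0221), Il6ra, the interleukin 6 receptor (0.74 ± 0.17), the NF-kB restraint Tnip1 (1.10 ± 0.16), Zc3h12a, an RNase that degrades cytokine mRNAs (1.00 ± 0.19), the acute phase gene Saa3 (0.93 ± 0.16) and Ptgs2, the inducible cyclooxygenase (2.36 ± 0.53, adjusted p = 0.0432). The negative ones were Tnfrsf1a, the main TNF receptor (-1.31 ± 0.29), and the protease gene Mmp9 (-2.06 ± 0.30). The median over the 58 genes was -0.01, against 0.03 over all features, and 27 of 58 were positive. In the other comparisons 0 of the 58 passed. Between 0 (HF4 against HF0) and 18 (HF3 against STD) of them had an unadjusted p under 0.05. Over all features the shares were 10.9% and 7.47% in these 2 comparisons.

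By role, the feedback inhibitors shared a sign in 3 of the 4 pairings with STD. The role is the name of a list, and not each of its genes need act only as an inhibitor. Its 9 genes were all negative for HF0 over STD in experiment 1 (median -0.81, with 53.8% of all features positive). They were all positive for HF3 over STD (median 0.65, 56%). In HF0 over STD of experiment 2 all 9 were positive as well (median 0.40, 52.8%), the same turn of sign as Tnf and Il6. In HF4 over STD, where all 4 members were positive, 2 of the 9 were (median -0.12). Of 13 target genes, 3, 8 and 10 were positive in the first 3 of these pairings, and 11 in HF4 over STD. The turn between experiments in HF0 over STD was not particular to these lists. Positive were 2 then 7 of 8 cytokine ligands and 2 then 11 of 16 signal transduction genes. Of 4 genes of cytokine processing and release, 0 then 3 were. Over all 58 genes, 12 were positive in experiment 1 and 46 in experiment 2. Receptors did not share the turn: 5 of 8 were positive in experiment 1 and 6 of 8 in experiment 2. In HF0 against STD the role lists had fitted medians of 0.10 (signal transduction, 16 genes) to 0.37 (target genes), against 0.01 over all features.

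Some pathway genes, chosen after their values were seen, show how this looked gene by gene. The decoy receptor Il1r2, which binds interleukin 1 without signalling, averaged -1.19 for HF0 over STD in experiment 1 and 1.11 in experiment 2, and 1.12 for HF3 over STD. The chemokine Cxcl2 averaged -1.18, 1.28 and 2.50 in these pairings, and the anti-inflammatory cytokine Il10 -0.87, 1.04 and 1.44. Casp1, the protease that matures interleukin 1 beta, did not mirror Il1b, at -0.08, 1.48 and 0.33. Against HF4-REV, Il1r2 averaged 1.00 and Casp1 -0.28.

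The genes most like each member over the 16 pairings formed different sets. For Tnf they were the survival gene Bcl2a1d (0.92), the chemokines Ccl3 (0.92) and Cxcl2 (0.88), and the NF-kB inhibitor Tnfaip3 (0.88). For Il6 they were Il1r1, the signalling interleukin 1 receptor (0.935), Ugdh, an enzyme that makes a building block of hyaluronan (0.92), Suox (0.90) and Rybp (0.89). For Il1b they were Crmp1 (0.89), the histone gene H2az1 (0.88), Chka, a choline kinase (0.87), and Tuba1c (0.86). For Il1rn they were the NF-kB regulator Tnip3 (0.87), the kinase gene Abl2 (0.86), Mcoln2 (0.85) and the iron transporter Slc11a2 (0.85). Over the 12 group values, the closest genes were Rpl35a for Tnf (0.93), Ugdh for Il6 (0.95), H2az1 for Il1b (0.94) and Abl2 for Il1rn (0.95). Ugdh and Rybp for Il6, H2az1 for Il1b, and Abl2, Tnip3, Mcoln2 and Slc11a2 for Il1rn were in the top 5 by both measures. For Tnf no gene was.

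**Figure D4:**
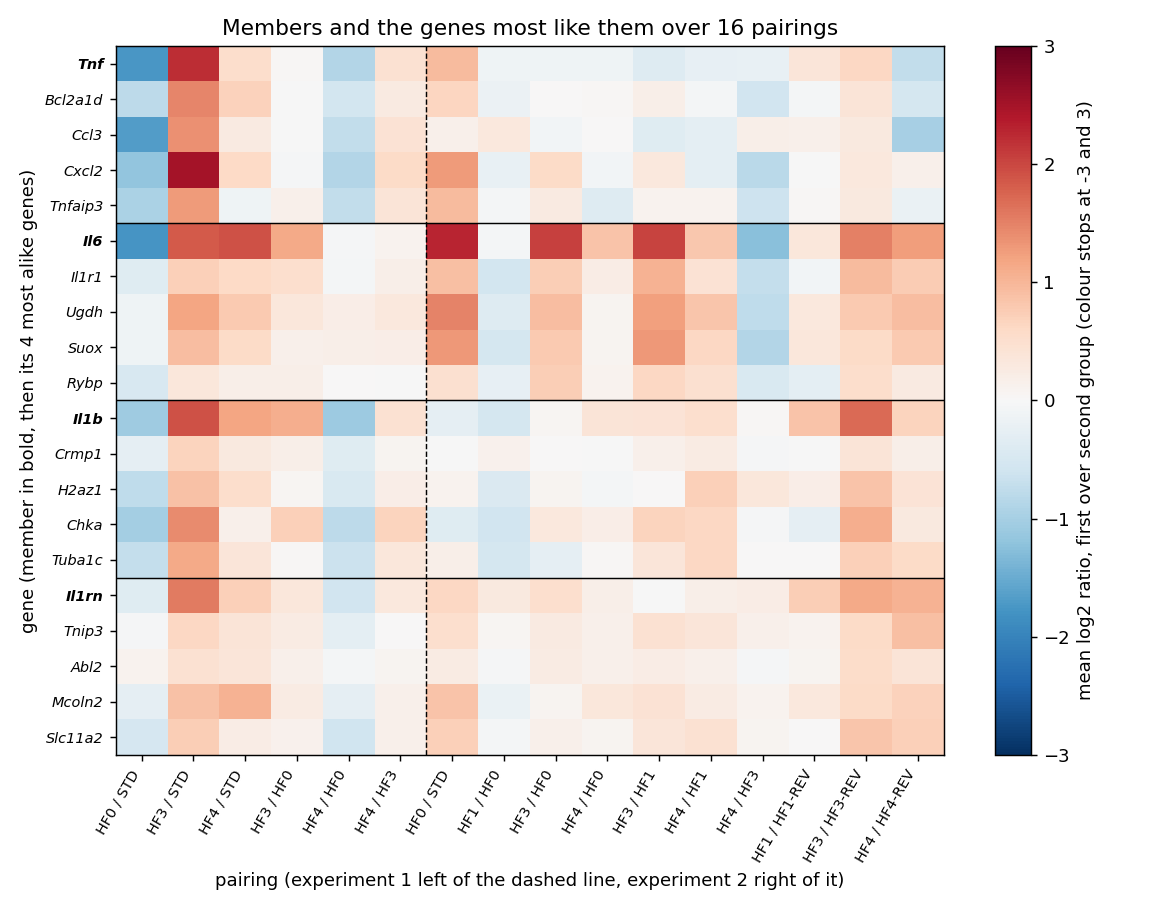
Mean log2 ratio of first over second group (colour, scale stopping at -3 and 3) for the 4 members (bold) and the 4 genes most like each (rows) in the 16 pairings (columns). The block of Tnf is strongest in the pairings of experiment 1, as for Ccl3 at -1.67 for HF0 over STD, while the block of Il6 is also strong in the HF3 pairings of experiment 2.

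Markers of other cells moved in the same pairings, and their part in the members' values was not tested. In HF0 over STD of experiment 2, the 13 measured epididymis epithelium markers had a median of -4.63 with 0 positive (-6.60 to -1.97), and the 15 male germ cell markers -3.45 with 0 positive. In experiment 1 these medians were -1.95 and 0.03. All 13 macrophage markers were positive in experiment 2 (median 1.07, 0.24 to 3.16), and 6 of 13 in experiment 1 (median -0.06). Tnf and Il6 were positive in the first case and negative in the second. Without the STD extract of experiment 2, the fitted HF0 against STD of Il6 turned from 1.03 to -0.26.

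Against the reversal groups, the adipocyte markers lay on the side opposite to Il1b, Il1rn and Il6. Their medians over 9 genes were -0.53 for HF1, -0.50 for HF3 and -0.86 for HF4, with 0, 2 and 1 positive. Germ cell medians were 1.19, 3.25 and 4.13, with 14, 15 and 15 of 15 positive. Macrophage markers had medians of 0.13, -0.18 and -0.96 (10, 5 and 3 of 13 positive), so in HF4 they lay on the side of Tnf and opposite to Il1rn. Over the 16 pairings the adipocyte list correlated with Il1b at -0.78, Il1rn at -0.76, Il6 at -0.60 and Tnf at -0.41. The endothelium list correlated with them at -0.65, -0.71, -0.69 and -0.59, and in the 3 reversal pairings 0, 1 and 2 of its 6 genes were positive. Of 6 T cell markers 0 were positive in each of these pairings, and of 5 mast cell markers 4, 5 and 5. The macrophage list correlated with Tnf at 0.52 and with Il6, Il1b and Il1rn at -0.06, -0.18 and -0.04. In HF4 over HF0 of experiment 1, where Tnf, Il1b and Il1rn averaged -0.89, -1.10 and -0.57, the adipocyte median was 0.77 with 8 of 9 positive. This opposition did not hold in every pairing. In HF0 over STD of experiment 1, where all 4 members were negative, the adipocyte median was -0.25 with 1 of 9 positive. Neutrophil markers correlated with the members between -0.18 (Il6) and 0.21 (Tnf).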

How the data were processed

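The authors' deposited table gives 1 log ratio of the 2 dyes per probe and array (25344 probes, 34 arrays, no missing value). It was taken as a log2 ratio of Cy5 over Cy3. The numerator, background correction, normalization and log base of the deposited log2 ratios are not stated in the labels used here. The base was taken as 2, because with base 10 the highest value, 7.99, would exceed the 4.82 that 16-bit intensities allow. Signal levels were not used here, so the number of arrays limits the precision.

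Probes were named through the platform annotation. Probes of 1 gene were averaged to 22879 features. Arrays were centred on their median, sign-turned and averaged over each dye swap. Group values came from least squares within each experiment. The 12 group values (n = 2 experiments for STD, HF0, HF3 and HF4, n = 1 otherwise, assumed to vary like the rest) entered lmFit and eBayes of limma 3.58.1 (R 4.3.3). The experiment was a block, and 3 residual and 3.16 prior degrees of freedom remained. P-values were adjusted by Benjamini-Hochberg over the 22879 features, and calls needed an adjusted p under 0.05. A fitted HF0, HF3 or HF4 against HF1 or a reversal group enters as its average over both experiments. The SE does not hold the misfit between pairings of experiment 1. Each group was taken as 1 extract per experiment, which the labels do not state. Whether extracts came from separate animals is not stated either. The p-values rest on how STD, HF0, HF3 and HF4 differed between the 2 experiments, a spread that may be technical and includes the RNA kit. No spread among extracts of HF1 or of a reversal group enters them, also not in the call for HF4 against HF4-REV.

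The members, pathway lists, marker lists and motifs were chosen with earlier results of these data known. Genes most like a member were the 5 with a symbol of highest correlation over the 12 group values, and, added later, over the 16 pairing averages. The fit was tested on simulated data. Python 3.11.15, numpy 2.4.6, pandas 2.3.3 and matplotlib 3.10.9 were used. Alternatives covered scaling, dye orientation, each experiment alone, each array on its own, a robust prior and leaving out arrays, pairings or the STD extract of experiment 2.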

Additional observations from a re-analysis of the deposited data

Results flagged for a closer look

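The difference of HF0 from STD had opposite signs in the 2 experiments for a pair of members, on every array. Tnf averaged -1.75 in experiment 1 and 0.94 in experiment 2, and Il6 averaged -1.77 and 2.29. Of all features, 22.1% were negative on both arrays of experiment 1 and 13.6% positive on all 4 of experiment 2. The share with both is not given, so the opposition is not shown to be particular to these genes. The difference between the experiments was not tested, since each experiment gives 1 value for a pair of groups. Tnf in HF4 over HF3 likewise averaged 0.45 in experiment 1 and -0.23 in experiment 2, with all arrays of each experiment on 1 side of 0, and this difference was not tested either.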

How the results depend on the processing

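Limits come first. Experiment and RNA extraction kit cannot be told apart, the numerator dye is unknown, and pairings of experiment 1 do not add up. HF1 and the reversal groups have 1 group value each. No paired analysis was possible because the replicate numbers only name the arrays of a pairing. All 48 member values kept their sign and side of the threshold with each probe on its own, without features of low spread, with a robust prior and without the HF4 with STD pairing of experiment 1. Scale normalization put 1 member past the threshold in HF3 against HF3-REV and 0 in HF4 against HF4-REV, and turned Tnf in HF3 against HF1 (0.034) and HF4 against HF0 (0.091). Quantile normalization left 0 in HF4 against HF4-REV and turned Il1b in HF0 against STD (0.10) and Tnf in HF3 against HF1 (0.052). Without centring, Il1b in HF0 against STD was 0.00058. Counting each array on its own treats arrays of 1 dye swap as separate, and differences between the experiments do not enter its SE. It gave 2 calls each in HF0, HF3 and HF4 against STD and 1 each in HF3 against HF0, HF4 against HF0, HF3 against HF1 and HF3 against HF3-REV. It turned Il1rn in HF4 against HF1 (0.11) and Il6 in HF1 against HF0 (-0.016). Without the STD extract of experiment 2 there were 2 calls each in HF3 against HF3-REV and HF4 against HF4-REV and 1 each in HF3 against HF0 and HF3 against HF1. Il1b in HF0 against STD became 0.41, Il6 in HF0 against STD -0.26, Il1rn in HF4 against HF1 0.011 and Il6 in HF1 against HF0 -0.050. The alternatives that follow were chosen after seeing the data. Without the HF0 with STD pairing of experiment 1, HF0 against STD had 1 call and HF4 against HF4-REV 0, Il1b stood at 0.64 in HF0 against STD and -0.024 in HF4 against HF0, Il6 and Tnf in HF1 against HF0 at -0.11 and -0.13, and Tnf in HF3 against HF0 at -0.19. With the sign of that pairing turned these were 0.52 for Il1b in HF0 against STD, -0.17 and -0.13 for Il6 and Tnf in HF1 against HF0 and -0.19 for Tnf in HF3 against HF0, and HF4 against STD had 1 call. Without HF4 with HF3, 0 passed in HF4 against HF4-REV, and Tnf in HF3 against HF1 was 0.16. Without HF3 with HF0, Il1b in HF0 against STD was 0.038, Tnf in HF3 against HF1 0.095 and Tnf in HF4 against HF0 0.16. Without HF4 with HF0, HF4 against HF3 was 0.19 for Il1b, 0.080 for Il1rn and 0.034 for Tnf, Il1b in HF1 against HF0 0.057, Il1rn in HF4 against HF1 0.16 and Tnf in HF4 against HF0 0.57. Without HF3 with STD, 0 passed in HF4 against HF4-REV, HF4 against HF3 was 0.0022 for Il1b, 0.075 for Il1rn and 0.13 for Tnf, Il1rn in HF3 against HF1 -0.090, and Tnf -0.13 in HF3 against HF0 and -0.026 in HF3 against STD. Leaving out each array in turn gave 0 to 2 calls in HF3 against HF3-REV and 0 to 1 in HF4 against HF4-REV. Signs turned for Il1b in HF0 against STD (-0.10 to 0.060), Il1rn in HF3 against HF1 (-0.018 to 0.19) and HF4 against HF1 (-0.086 to 0.055), and Tnf in HF3 against HF1 (-0.22 to 0.097) and HF4 against HF0 (-0.11 to 0.10). As values with no test, the arrays with the first group in Cy5 alone moved 23 of 48 member values by more than the residual SD of the fit and gave 6 another sign, those with it in Cy3 alone 23 and 8, experiment 1 alone 12 of 24 and 3, and experiment 2 alone 15 of 48 and 7. In HF4 against STD, Tnf was 1.06 with Cy5 alone and -0.10 with Cy3 alone. The cause was not tested for any of these.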
